A study of Homo sapiens with 8 samples.

Results

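Shared CTCF peaks at promoters were described in the osteosarcoma cell line U-2 OS, a human bone tumour line, as measured by chromatin immunoprecipitation followed by sequencing (ChIP-seq). Members were defined by presence in both CTCF peak lists and by position. A replicate 1 peak on chromosomes 1 to 22 or X was taken when it overlapped a replicate 2 peak by at least 1 bp and its summit, the base of highest signal, lay within 1 kb of a transcript start in GENCODE release 44 (hg38). This rule gave 7046 peaks of 33936 shared CTCF peaks, a share of 20.8% (95% Wilson interval 20.3 to 21.2). The other 26890 shared peaks are called peaks elsewhere below. Starts of all annotated transcripts counted. An Ensembl canonical transcript started within 1 kb of the summit at 4780 of the 7046 members (67.8%).

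Both CTCF libraries came, per the sample labels, from clone C32, a single U-2 OS clone with FLAG and Halo tags knocked into the endogenous CTCF gene, pulled down with an antibody against CTCF. All cells of the series were crosslinked with 1% formaldehyde for 6 min, and no other treatment was listed. Libraries for Sp1 (1 for each of 2 antibodies) and for normal rabbit IgG came from another U-2 OS line, with V5 and Halo tags knocked into SP1, and serve here for overlap only. The lines and sequencing runs of the CTCF and Sp1 libraries differ, so target and experiment cannot be told apart, and peak lists hold no expression with which to check the identity of the cells.

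CTCF is a DNA-binding protein with a row of zinc fingers. It reads a long, non-palindromic sequence, so each site has a direction. On chromatin it stops the ring-shaped cohesin complex as cohesin extrudes DNA loops, and the direction of the site matters for that stop. CTCF bound near gene starts can place a promoter at the base of a loop, shield it from neighbouring enhancers, or mark one parental allele at imprinted genes.

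Examples of the sequences behind the position and strand results are shown first. Each is read from hg38 along the strand of the gene, 5′ to 3′, and the capitals mark the match to the CTCF core, a 12-letter consensus of the central part of the CTCF motif, with at most 1 mismatch. The first set holds strong members in which the core lay upstream of the start and read in the direction of the gene.

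GRIN2A (chr16:10181706-10181765, minus strand): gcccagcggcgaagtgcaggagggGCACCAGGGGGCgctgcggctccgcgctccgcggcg
COMTD1 (chr10:75236089-75236148, minus strand): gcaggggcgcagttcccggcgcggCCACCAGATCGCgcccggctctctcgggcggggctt
RBPJL (chr20:45306667-45306726, plus strand): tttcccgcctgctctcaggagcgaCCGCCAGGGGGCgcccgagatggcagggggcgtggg
PSMD6 (chr3:64023527-64023586, minus strand): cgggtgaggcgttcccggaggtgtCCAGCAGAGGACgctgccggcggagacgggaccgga

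The core centres of these sites lay 98, 88, 144 and 62 bp upstream of the gene's start, in that order. In the next set the core read against the gene, so the capitals are the reverse complement of the core. The core centre lay 86, 124 and 242 bp downstream of the starts of ZNF423, H4C16 and ORC4. It lay 64 bp upstream of that of POLD4, which is shown as an exception to the prevailing strand upstream. Downstream cores that read with the gene are left out of this set, although they were common. In the downstream window called the mirror below, 140 of 327 cores (42.8%) read with the gene. CLPB and TK1, with core centres 156 and 54 bp downstream, are examples. The ORC4 summit, 263 bp downstream, lay outside that window.

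ZNF423 (chr16:49857818-49857847, minus strand): acgcgcggcGCCCCCTGGCGGctgggtaaa
H4C16 (chr12:14770016-14770075, minus strand): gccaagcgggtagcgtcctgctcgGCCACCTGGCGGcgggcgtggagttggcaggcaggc
ORC4 (chr2:147937909-147937968, minus strand): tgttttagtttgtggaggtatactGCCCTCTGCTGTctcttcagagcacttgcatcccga
POLD4 (chr11:67357007-67357066, minus strand): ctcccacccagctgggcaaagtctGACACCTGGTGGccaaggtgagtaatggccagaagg

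Promoter members were placed mostly upstream of the nearest start. Of the 7046 summits, 4136 (58.7%, 57.5 to 59.8) lay upstream, 2895 (41.1%, 39.9 to 42.2) downstream and 15 at the start base. The densest 50 bp bin was the one ending at the start, with 747 summits, against 431 in the first 50 bp downstream. The interval from 250 to 50 bp upstream, called the upstream window below, held 1712 members (24.3%), and the same interval downstream, its mirror, held 789 (11.2%). These windows were chosen after the data were seen. By annotation, 41.6% of summits lay in introns, 24.9% between genes, 16.9% in non-coding exons, 10.6% in UTRs and 6.07% in coding exons.

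**Figure D1:**
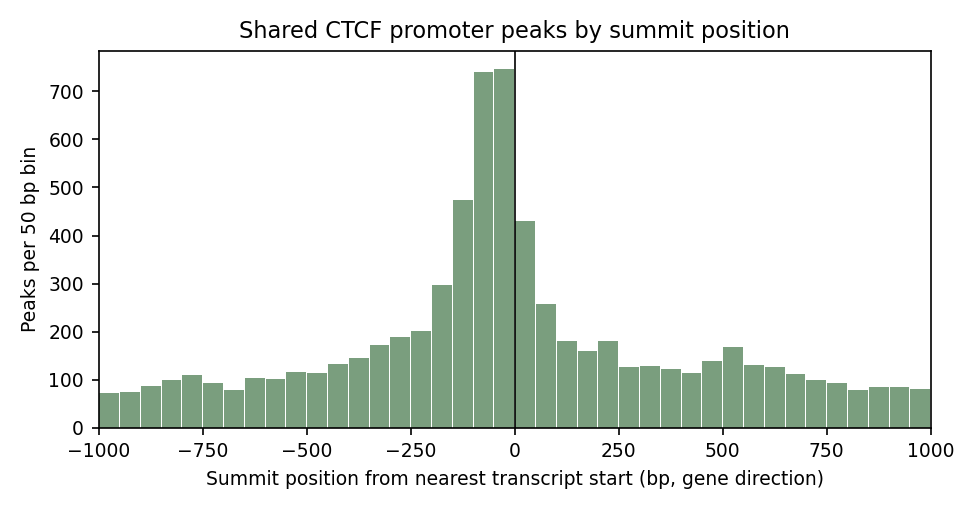
Number of shared CTCF promoter peaks per 50 bp bin (vertical axis) by the position of the replicate 1 summit from the nearest transcript start in bp (horizontal axis, negative is upstream). The bins rise towards the start and the highest, with 747 peaks, ends at it.

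Members just upstream of starts were stronger peaks than those just downstream. Fold enrichment is the deposited linear ratio of pulled-down to control signal at the summit. Its median was 59.6 in replicate 1 and 27.4 in replicate 2 in the upstream window, against 28.3 and 13.3 in the mirror. The difference of the log2 medians was 1.08 in replicate 1 and 1.04 in replicate 2, so the direction was the same in both libraries. Against peaks elsewhere, the upstream window was higher by 0.51 and 0.31 on the log2 scale and the mirror differed by -0.57 and -0.74. The difference between window and mirror was 0.98 and 0.91 among members with starts on 1 strand only, 0.81 and 0.68 among members with the core and 1.08 and 1.06 among those without. The deposited −log10 p at the summit showed the same order, with medians of 362 and 160 in the upstream window and 140 and 59.0 in the mirror.

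**Figure D2:**
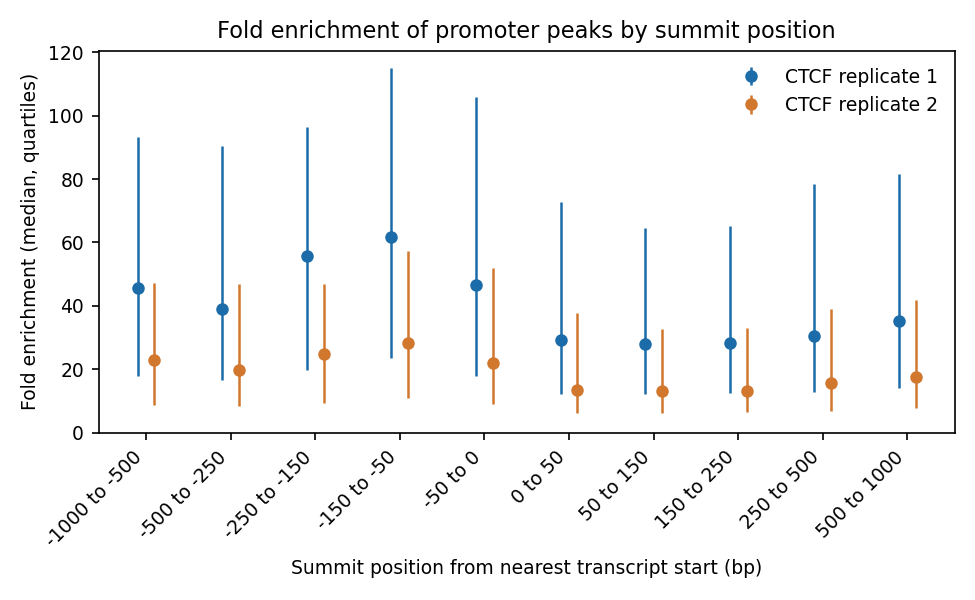
Fold enrichment (vertical axis, linear) of shared CTCF promoter peaks in bins of summit position (horizontal axis, bp from the nearest start). Points are medians over peaks and bars span the lower to the upper quartile for CTCF replicates 1 and 2. In both libraries the median is highest from 150 to 50 bp upstream (61.6 and 28.2) and lowest in the bins just downstream.

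Over all positions, promoter members and peaks elsewhere differed little in strength. The median fold was 41.0 in replicate 1 and 20.1 in replicate 2 at promoters, and 42.0 and 22.2 elsewhere, a log2 difference of -0.03 and -0.14. The spread among members was wide, from 1.58 to 494 in replicate 1 and from 1.54 to 424 in replicate 2. Replicate 2 gave lower ratios throughout: the median log2 ratio of replicate 2 to replicate 1 was -0.93, and replicate 2 was higher at 188 members (2.67%). The order of members was alike in the replicates, with Spearman's rho 0.952 and Pearson's r of log2 fold 0.947 across the 7046 members, against a rho of 0.953 elsewhere; these are descriptions across peaks that share their libraries. Summits of the replicates lay within 100 bp of each other at 98.6% of members, with a median distance of 9 bp. Of the 9545 promoter peaks in replicate 1, 73.8% (72.9 to 74.7) overlapped a replicate 2 peak, against 81.6% (81.2 to 82.0) of the other 32948 replicate 1 peaks. In the other direction, 97.1% of the 7367 replicate 2 promoter peaks overlapped a replicate 1 peak. An IgG peak overlapped 2 members.

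Next, the DNA under the summits was examined. The core was present within 50 bp of the summit, on either strand and with at most 1 mismatch, in 45.2% (44 to 46.4) of promoter members and in 60.1% (59.5 to 60.7) of peaks elsewhere. Windows of the same length centred on the starts of all 19970 protein-coding genes held it in 1.22% (1.08 to 1.38). An exact core was found in 13.8%, 20.0% and 0.0451% of the same sets. Fold rose with the match: the medians of members with an exact core were 83.6 and 41.9 in replicates 1 and 2, those with 1 mismatch 54.5 and 26.5, and those without a core 27.2 and 13.6. The order was the same elsewhere, at 66.6 and 34.3, 47.3 and 24.8, and 27.5 and 14.4. When all members were ranked by mean log2 fold and split into 4 groups of about equal size, the core share was 23.5% in the weakest group, 40.5% and 52.6% in the next ones and 64.2% (62.0 to 66.4) in the strongest.

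Windows at promoters were richer in GC, and their cores held a CG dinucleotide more often. The median GC content of these windows was 62.4% at promoters and 50.5% elsewhere, and the ratio of observed to expected CpG was 0.55 and 0.24. Protein-coding gene starts had 66.3% and 0.83. A CG dinucleotide stood inside the core of 15.7% (14.5 to 17.0) of promoter members with a core, against 5.67% (5.32 to 6.04) elsewhere. Among cores with 1 mismatch, the most frequent substitution at promoters was A3G, with positions counted from 1 at the 5′ end of the core. It made up 15.1% (13.7 to 16.6) of 2214 such cores at promoters and 4.80% (4.41 to 5.22) of 10777 elsewhere. The core of RBPJL printed above carries it. The most frequent exact core at promoters was CCACCAGGGGGC, with 15.9% (13.7 to 18.3) of exact cores against 8.58% (7.86 to 9.36) elsewhere. CpG methylation, to which CTCF binding is known to be sensitive at some sites, was not measured here.

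The strand of the core changed with position. Over all members with a core, 53.3% (51.6 to 55.0) of 3184 cores read in the direction of the gene, and elsewhere 51.0% (50.2 to 51.7) did with respect to the nearest start. In the upstream window the core read with the gene at 511 of 759 members, 67.3% (63.9 to 70.6). In the mirror it did so at 140 of 327, 42.8% (37.6 to 48.2). The intervals of the windows do not overlap, but the windows were chosen after the data were seen, so this is a description only. Farther away, from 1000 to 500 bp upstream, the share was 53.5% (49.1 to 57.9), and from 500 to 1000 bp downstream 46.0% (41.8 to 50.2).

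**Figure D3:**
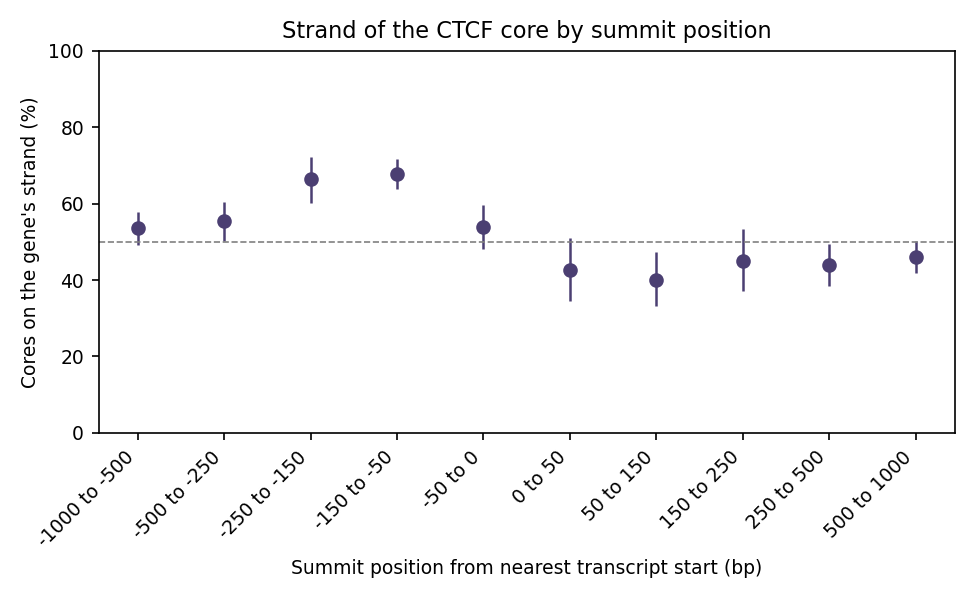
Percent of cores that read in the direction of the gene (vertical axis) in bins of summit position (horizontal axis, bp from the nearest start), for shared CTCF promoter peaks with a core. Points are shares and bars are 95% Wilson intervals; the dashed line marks 50%. The share is highest from 150 to 50 bp upstream (67.8%) and lowest from 50 to 150 bp downstream (40.1%).

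The upstream strand preference was found in each class of start examined. It was 67.5% (63.8 to 70.9) where starts lay on 1 strand only and 66.3% (56.0 to 75.3) where they lay on both strands, and 66.7% (62.5 to 70.7) where the nearest start was protein-coding and 67.2% (60 to 73.7) where it was that of a lncRNA gene. In members that overlapped a shared Sp1 peak it was 71.7% (58.4 to 82.0) of 53. In the 4 groups of strength, from weakest to strongest, the upstream share was 62.5%, 62.7%, 67.8% and 69.7%, with overlapping intervals. Promoter peaks listed in replicate 1 only, which were not members, had the core on the gene's strand at 36 of 84 sites in the upstream window, 42.9% (32.8 to 53.5). Their core share was 17.0% over all positions. Within the upstream window, members whose core read with the gene had a median fold of 82.9 and 39.7 in replicates 1 and 2, and those whose core read against it 71.5 and 35.3.

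Promoters chosen without regard to peaks were also examined, and were then split by overlap with the same shared CTCF peaks. RefSeq promoter sequences (GRCh38.p14, from 250 bases before to 50 after the start) were matched by symbol for 15315 protein-coding genes. An exact core stood in 81 of them, and 65 of these (80.2%, 70.3 to 87.5) overlapped a shared CTCF peak. The share was 40.4% (37.0 to 44) of 759 promoters whose best match had 1 mismatch, 14.9% of 4689 with 2 mismatches and 7.66% of 9786 with more. Over all 15315 promoters it was 11.9% (11.4 to 12.4). Among promoters with a core, 67.2% (62.3 to 71.8) of the 372 that overlapped a peak and 52.1% (47.6 to 56.6) of the 468 that did not had it in the direction of the gene. The peaks are those described above, so the 67.2% is no independent check of the share in the upstream window.

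Words bound by other promoter factors were sought in the same windows on both strands. The GC box, read by Sp1 and its relatives, was spelled GGGCGG and occurred in 19% (18.1 to 20.0) of promoter members, 4.80% (4.55 to 5.06) of peaks elsewhere and 35.7% (35.1 to 36.4) of protein-coding starts. The ETS word CCGGAAG occurred in 1.87%, 0.744% and 8.31%, the NRF1 word GCGCATGC in 0.568%, 0.186% and 1.78%, and the CRE word TGACGTCA in 0.185%, 0.0521% and 1.19%. All of these were more frequent at promoter members than elsewhere and less so than at starts, which are not centred on CTCF summits. The NFY word CCAAT (8.02%, 12.1% and 9.35%), the TATA word TATAAA (1.76%, 4.47% and 5.24%), the YY1 word AAGATGGC (1.05%, 1.69% and 3.01%) and the ZNF143 word ACTACAA (0.554%, 1.10% and 0.666%) were less frequent at promoter members than elsewhere, and the E-box CACGTG stood in 1.92%, 1.48% and 3.30%. The GC box can overlap the 3′ flank of a CTCF core that ends in GGGC.

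**Figure D4:**
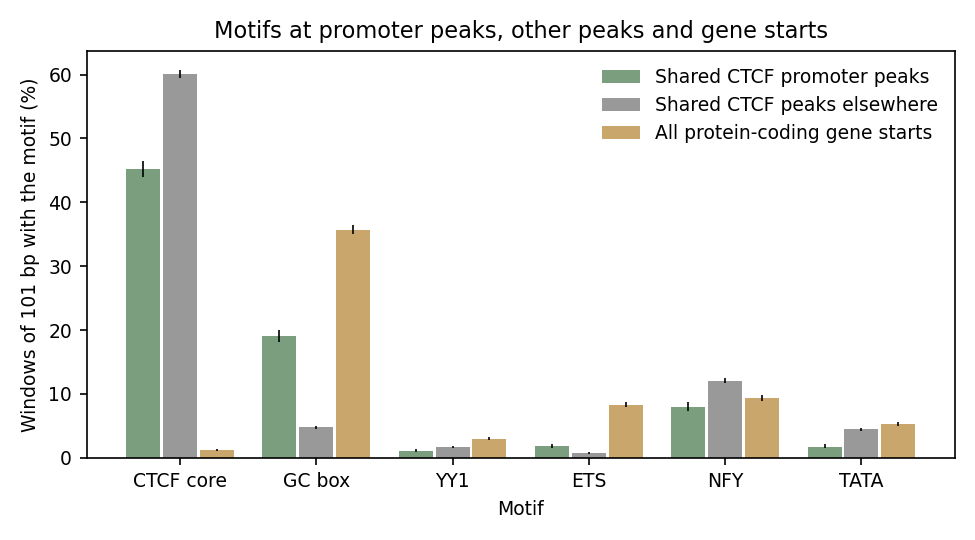
Percent of windows reaching 50 bp to each side (vertical axis) that hold a CTCF core with at most 1 mismatch or the word of another factor (horizontal axis), at shared CTCF promoter peaks, shared CTCF peaks elsewhere and the starts of all protein-coding genes. Bars are shares with 95% Wilson intervals. Promoter peaks held the core in 45.2% and the GC box in 19% of windows.

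Promoter members overlapped Sp1 more often than other CTCF peaks did. Shared Sp1 peaks are peaks of Sp1 antibody 1 that overlap a peak of antibody 2. Of all shared CTCF peaks, 2.88% overlapped one. At promoters this was 811 members (11.5%, 10.8 to 12.3) and elsewhere 166 peaks (0.617%, 0.531 to 0.718). The Sp1 summit lay within 100 bp of the CTCF summit at 192 of the 811 (23.7%), with a median distance of 242 bp. Members with Sp1 had the core less often, 27.0% (24.1 to 30.2) against 47.6% (46.3 to 48.8), and the GC box more often, 28.7% (25.7 to 31.9) against 17.8% (16.9 to 18.8). Their GC content was also higher, with medians of 66.3% and 61.4%, and the part of GC content in these differences was not tested. The median folds were 36.1 and 17.1 with Sp1 and 41.5 and 20.3 without. Sp1 overlap was found in 15.3% of the weakest group of members, 8.98% and 8.35% of the middle ones and 13.4% of the strongest.

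Among the strongest members at protein-coding genes, ranked by mean log2 fold and free of IgG overlap, most carried a core. CLPB, a mitochondrial protein disaggregase, had folds of 293 and 178 in replicates 1 and 2, with a summit 171 bp downstream of the start in a coding exon, the core on the gene's strand and a shared Sp1 peak. ATP23, a protease of the mitochondrial inner membrane, had 303 and 154 at 507 bp upstream. ACBD4, an acyl-CoA binding protein, had 287 and 156 at 208 bp upstream. All 3 were over 150 in both libraries, although replicate 2 was lower at each. MYO7A, an unconventional myosin of hair cells, had 274 and 149 at 941 bp upstream, and TMC6, a transmembrane channel-like protein, 281 and 144 at 980 bp upstream. GRIN2A, a subunit of the NMDA receptor, had 304 and 133 at 102 bp upstream. COMTD1, which holds a methyltransferase domain, had the widest gap between libraries of this set, 402 against 98.5, at 63 bp upstream. DHX8, a splicing helicase, had 328 and 111 at 104 bp upstream, and its window held no core, with 2 mismatches at best. RBPJL, a relative of the Notch pathway factor RBPJ, had 314 and 115 at 155 bp upstream. RGS6, a regulator of G protein signalling, also lacked a core within 1 mismatch, with 276 and 130 at 21 bp upstream. PAK6, a p21-activated kinase, had 245 and 147 at 940 bp downstream.

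At lncRNA genes the strongest member was that of ENSG00000236501, with folds of 440 and 264 at 99 bp upstream and a core that read against the gene. ENSG00000289485 had 296 and 181 at 67 bp upstream, ENSG00000287877 had 291 and 156 at 458 bp upstream, and SLC25A25-AS1 had 361 and 121 at 894 bp downstream. A pair of members near copies of DDX11L16, on chromosomes 15 and 16, had 289 and 186 and 388 and 206. These lie in near-identical chromosome ends, so their reads may be split between copies and the values are uncertain. The nearest start was protein-coding for 66.2% of members and that of a lncRNA gene for 22.9%, with median folds of 38.2 and 18.7 for the former and 51.7 and 25.5 for the latter.

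At the edge of the rule, the members of FREM2 and ANGPT1 lay 999 and 1000 bp upstream with folds of 7.81 and 4.29 and of 56.8 and 30.3, and that of ENSG00000250775 lay 1000 bp downstream with 8.68 and 4.79. Just outside were the peaks of ZCCHC14 at 1001 bp (21.7 and 8.45), ENSG00000290017 at 1002 bp (35.9 and 17.8) and RNA5SP273 at 1002 bp (12.3 and 7.12). The weakest members, at ROCK1P1, DUX4L26 and ENSG00000280614, had folds of 1.58 and 1.58, 1.68 and 1.54, and 1.88 and 1.56.

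By gene, 4848 of 19970 protein-coding genes (24.3%) and 2068 of 18756 lncRNA genes (11.0%) had a member within 1 kb of one of their starts. These shares are the background for the gene lists below. Of the members, 5625 lay near the starts of 1 gene and 1421 near those of more than 1. Of the protein-coding genes, 566 had at least 2 members, and DIAPH1, GNAI2, HOOK2, LIMS2, MYO1D and PLEKHG5 had 4 each. At single loci, TK1, which encodes thymidine kinase, had 1 member with folds of 45.5 and 31.9 at 58 bp downstream, with the core on the gene's strand and a shared Sp1 peak. MYC had members with 21.0 and 10.9 and with 34.8 and 14.2, at 29 and 95 bp downstream of the nearest of its starts. SP1 had a member with 12.2 and 8.76 at 762 bp downstream. The imprinted H19 had members with 20.3 and 11.4 and with 63.7 and 30.6. They lay 639 and 488 bp upstream of the nearest of its starts, with both summits in introns. The CTCF gene had none.

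Of the 16 gene lists, 3 had a share whose interval lay above the 24.3% of all protein-coding genes, 3 lay below and 10 spanned it. The clustered protocadherins, cell-surface proteins whose alternative promoters give neurons their identity, had the highest share, 36 of 53 genes (67.9%, 54.5 to 78.9), although U-2 OS is not a neural line. The list of CTCF and cohesin genes had 13 of 28 (46.4%, 29.5 to 64.2). This list is wider than its name, since the 13 include YY1, MAZ, PATZ1 and BRD2, which encode neither CTCF nor cohesin. The share without these genes was not computed, so the place above the background is that of the wider list. In this list ESCO1, which acetylates cohesin, had folds of 171 and 96.6, PDS5A, a cohesin regulator, 140 and 86.0, and PATZ1, a zinc finger factor, 99.2 and 55.4. The cytosolic ribosomal proteins had 30 of 83 (36.1%, 26.6 to 46.9). At the lower end were the olfactory receptors with 6 of 400 (1.5%, 0.689 to 3.23), the keratins with 4 of 55 (7.27%, 2.86 to 17.3) and the zinc finger (ZNF) genes with 99 of 508 (19.5%, 16.3 to 23.2). The place of the ZNF genes below the background did not hold at shorter distances: with summits within 250 bp they had 13.4% (10.7 to 16.6) against 13.7% of all protein-coding genes, and within 500 bp 15.9% (13.0 to 19.4) against 18.3%. The other 5 lists kept their side at both distances and with either replicate alone. With the strongest member of each gene, list medians of fold ran from 9.61 and 5.75 in the keratins to 146 and 87.7 in 7 HOX genes. They were 31.7 and 16.0 in the protocadherins and 64.8 and 30.5 in the CTCF and cohesin genes. The medians over all members, 41.0 and 20.1, involve no such choice of the strongest and are not a like measure. Shares of all members set beside list genes below are not a like measure either. For list genes, summit position, core strand and Sp1 overlap are those of the strongest member, seen from the gene's own start.

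**Figure D5:**
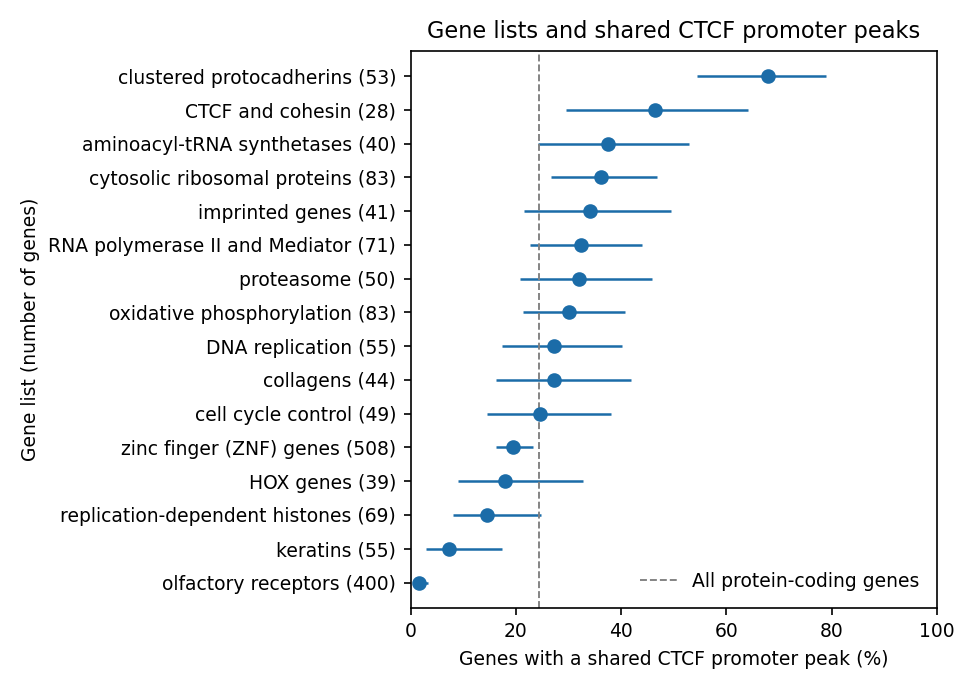
Percent of genes in each list with a shared CTCF peak within 1 kb of a start (horizontal axis), by list with its number of genes (vertical axis). Points are shares, bars are 95% Wilson intervals, and the dashed line marks the 24.3% of all protein-coding genes. The clustered protocadherins stand highest at 67.9% and the olfactory receptors lowest at 1.5%.

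The protocadherin members followed the clusters. A member was found at 13 of 15 PCDHA genes, 12 of 16 PCDHB genes and 11 of 22 PCDHG genes, and each gene had 1. At 29 of the 36 genes the summit lay between 119 bp upstream and 13 bp downstream of the start, and only PCDHB9 among these had a core within 1 mismatch. At 6 PCDHA genes the summit instead lay 537 to 601 bp downstream of the start, and all 6 had a core that read with the gene. PCDHA4 had folds of 117 and 60.6 in replicates 1 and 2 and PCDHA5 had 90.3 and 43.7. PCDHA8 had 48.3 and 28.5, and PCDHA12 had 30.4 and 15.9. The lowest of these were PCDHA7 (9.26 and 5.01) and PCDHA9 (8.68 and 4.04). Sequences of 4 of these 6 sites follow, on the plus strand of chromosome 5, with the core in capitals.

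PCDHA4 (chr5:140807620-140807679): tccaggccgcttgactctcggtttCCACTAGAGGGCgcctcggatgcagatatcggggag
PCDHA5 (chr5:140822205-140822264): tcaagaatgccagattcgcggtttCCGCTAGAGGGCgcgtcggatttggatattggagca
PCDHA8 (chr5:140841754-140841813): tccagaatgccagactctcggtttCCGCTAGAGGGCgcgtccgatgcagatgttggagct
PCDHA12 (chr5:140875905-140875964): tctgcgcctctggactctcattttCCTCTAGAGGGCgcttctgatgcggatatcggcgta

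The same core, CCACTAGAGGGC, stood at PCDHA4, PCDHA7 and PCDHA9. The 60 bases around it were identical in PCDHA7 and PCDHA9 and shared 58 of 60 positions with PCDHA4. Reads there may be split between copies, but the paper's paired reads are longer than these 60 bases, and this was not tested. The peaks at PCDHA4, PCDHA5, PCDHA8 and PCDHA12 were 1210 to 1898 bp wide and also covered the start, from 262 to 477 bp upstream. Those at PCDHA7 and PCDHA9 began 367 and 313 bp downstream of it. Peaks with the summit near the start also reached downstream, to 1084 bp at PCDHA11, 903 at PCDHA10, 826 at PCDHA2 and 799 at PCDHA6. These peaks thus covered 537 to 601 bp too, and cores were sought only within 50 bp of a summit. Those at PCDHA3 and PCDHA1 ended at 249 and 83 bp. PCDHAC1, a gene of the separate C type, had the strongest protocadherin member, 142 and 72.3 at 248 bp downstream, without a core. None of the 36 overlapped a shared Sp1 peak.

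The ribosomal protein members lay close upstream and often beside Sp1. For 15 of the 30 genes the summit was in the upstream window and for 0 in the mirror. Over all members these shares were 24.3% and 11.2%. A shared Sp1 peak overlapped 18 of the 30, against 11.5% of all members. Of the 10 with a core, 8 had it on the gene's strand. This share was 53.3% over all members with a core and 67.3% in the upstream window. RPL10A had 200 and 117 at 129 bp upstream and RPL26 had 182 and 96.4 at 130 bp upstream, and both encode proteins of the large subunit. The median fold over the 30 was 77.0 and 42.5. These genes have near-identical processed pseudogenes, so values at summits within their exons are uncertain.

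Other genes of general cell function had shares of 27.3% to 37.5% with intervals that spanned the background at 1 kb. With summits within 250 bp, the proteasome (26%, 15.9 to 39.6) and oxidative phosphorylation (21.7%, 14.2 to 31.7) lay above the 13.7% of all protein-coding genes. Within 500 bp, the proteasome (30%, 19.1 to 43.8) and RNA polymerase II and Mediator (28.2%, 19 to 39.5) lay above the 18.3%. The aminoacyl-tRNA synthetases had 15 of 40 (37.5%, 24.2 to 53), led by SARS2 (141 and 122), RARS1 (120 and 105) and AARS2 (180 and 55.4), which charge tRNAs in mitochondria or cytosol. RNA polymerase II and Mediator had 23 of 71 (32.4%), with MED23 at 222 and 108, MED20 at 169 and 134 and the polymerase subunit POLR2C at 218 and 94.6. The proteasome had 16 of 50 (32%), with PSMD11 at 222 and 99.3 and PSMD6 at 192 and 73.4, both of the regulatory particle, and the activator PSME3 at 154 and 79.0. Oxidative phosphorylation had 25 of 83 (30.1%), with NDUFA6 of complex I at 173 and 118 and the ATP synthase genes ATP5MJ at 178 and 104 and ATP5MC2 at 156 and 75.6. In the upstream window lay 8 of the 16 proteasome and 13 of the 25 oxidative phosphorylation summits, against 1 and 1 in the mirror. Of all members, 24.3% lay in the upstream window and 11.2% in the mirror. The DNA replication genes had 15 of 55 (27.3%), with the polymerase subunit POLD4 at 181 and 84.0, GINS4 of the replicative helicase at 166 and 42.0 and the origin recognition subunit ORC4 at 92.9 and 51.7. Their cores read with the gene at 1 of 6, against 53.3% over all members with a core, and 6 cores are too few to describe the list.

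Among developmental, imprinted and structural genes, the HOX genes, which pattern the body axis, had a member at 7 of 39 (17.9%, 8.98 to 32.7, an interval that spans the 24.3% background), and the median fold of these was 146 and 87.7. HOXB5 had 161 and 95.1, HOXA10 had 150 and 87.7 and HOXC5 had 146 and 88.1. The imprinted genes had 14 of 41 (34.1%, 21.6 to 49.5), led by a single member between SGCE and PEG10 with 122.9 and 94.4, and by L3MBTL1 with 119 and 50.0. The collagens had 12 of 44 (27.3%). COL1A1, the main bone collagen chain, had 200.8 and 114 at 668 bp upstream, COL9A2 had 202 and 102 and COL27A1 had 147 and 92.9. The list of cell cycle control genes had 12 of 49 (24.5%), with CDK4 at 130 and 59.2 and the apoptosis gene BBC3 at 102 and 57.1. The replication-dependent histones had 10 of 69 (14.5%, 8.07 to 24.7). A shared Sp1 peak overlapped the member of 8 of these 10 genes, against 11.5% of all members. The 10 genes had 9 distinct members, and the member counted more than once is among those with Sp1. H4C16 had 68.6 and 36.1, H4C2 had 64.0 and 32.8 and H1-1 had 48.7 and 34.7. Histone genes are near-identical copies, so their values are uncertain.

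In the lists with low shares, members could still be strong. ZNF385A had 217 and 148, ZNF423 had 249 and 91.6 and ZNF843 had 151 and 106. Of the 99 ZNF genes, 41 had the summit in the upstream window and 8 in the mirror, and 16 of 36 cores read with the gene. Over all members 24.3% of summits lay in the upstream window and 11.2% in the mirror, and 53.3% of cores read with the gene. The olfactory receptors OR52N2 (122.7 and 72.9) and OR51D1 (124 and 61.4) had strong members with a core, and OR12D1 a weak one (11.6 and 7.07). The keratins KRT12 (12.9 and 11.6), KRT8 (13.1 and 7.21) and KRT17 (6.33 and 4.30) were all below the median of members in both libraries.

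Across chromosomes, the share of shared CTCF peaks that were promoter members ran from 13.8% (12.2 to 15.6) on chromosome 4 and 14.2% on chromosome 13 to 28.8% (26.4 to 31.3) on chromosome 19 and 29.2% (27.0 to 31.5) on chromosome 17. With members split into 4 groups by GC content of the window, the core share went from 52.6% in the lowest group to 47.1%, 40.5% and 39.4% in the next ones, and Sp1 overlap was 4.82%, 10.6%, 17.0% and 14.5%.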

How the data were processed

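Peak lists of 2 CTCF, 2 Sp1 and 1 IgG library were used. Per the labels and the methods, with versions from the submitters' processing notes, reads were trimmed by the authors (cutadapt 2.6), mapped on hg38 (Bowtie2 2.4.5), filtered (SAMtools 1.15.1) and used to call peaks library by library (MACS2 2.2.7.1). The submitters' notes also name deepTools 3.5.4 and bedtools 2.27.1. The methods describe an initial call at a permissive p-value limit, with control replicates merged and the local background model switched off. They do not say whether the deposited lists, which end near a −log10 q of 1.3, are from that call. The deposited values are a fold ratio over control, a −log10 p, a −log10 q, a score, which was not used, and the offset of the summit. For CTCF the series text speaks of wild-type cells and the labels of the tagged clone; the labels were followed. The series text calls the CTCF replicates independent, and nothing says whether they were separate cultures. Peak lists do not give read depth, so depth is unknown.

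Peaks were intersected, placed against GENCODE release 44 starts and scanned for motifs in hg38 with Python 3.11.15, pandas 2.3.3, scipy 1.17.1 and pysam 0.24.0; the functions were tested on simulated data. With 2 CTCF libraries no p-value was computed. Shares carry 95% Wilson intervals for counting error only, and peaks are not replicates. Ties in distance went to protein-coding, then canonical transcripts. Members, lists and the rule for named genes were chosen with earlier results of these data known. That rule took the 12 strongest members at protein-coding and 6 at lncRNA genes without IgG overlap, up to 3 genes per list, the members nearest to the distance limit or lowest in fold, and TK1, MYC, CTCF, SP1 and H19. Some items that this rule takes are not reported here. Genes with 4 members, the PCDHA genes with a core downstream of the start or named for their peak extent, and PCDHB9 were named after their values were seen. Alternatives changed the distance, annotation, overlap, threshold, motif, window and replicate.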

Additional observations from a re-analysis of the deposited data

How the results depend on the processing

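No paired analysis was possible because only the input libraries carry the same replicate numbers as the CTCF libraries, and no input peak list was used here. Of 102 alternative values for the results on members, 44 stayed within the stated tolerance, 57 moved and 1 changed sign, the fold difference to peaks elsewhere in replicate 1 with summits within 250 bp. The tolerance was 1.5-fold for counts, the 95% interval for shares and correlations, and 1 SD between replicates for medians, which is narrow at these numbers of peaks. Alternatives for the upstream window were chosen after seeing the data. The cause of each shift was not tested unless the setting itself sets it.

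With the summit within 250 bp of a start there were 3667 members, at 13.7% of protein-coding genes and 212 list genes, the log2 fold difference to peaks elsewhere was 0.12 and -0.06 in replicates 1 and 2, the core share 41.0%, its orientation 57.2%, the downstream share 32.9%, GC 65.3% and Sp1 overlap 14.5%. Within 500 bp the gene share was 18.3%, the core share 42.7%, orientation 55.1%, the downstream share 36.4%, GC 64.4% and Sp1 overlap 13.6%. With protein-coding starts only, the log2 fold difference was -0.16 and -0.25, the core share 41.1%, the downstream share 38.2%, GC 64.4%, Sp1 overlap 14.3% and the difference between upstream window and mirror 1.21 and 1.16. With canonical starts only, the gene share was 15.6%, the fold difference -0.23 in replicate 2, the core share 40.1%, orientation 57.5% overall and 73.8% in the upstream window, the downstream share 39.4%, GC 64.4%, Sp1 overlap 15.6% and the window difference 1.51 and 1.38. With starts on 1 strand only, the downstream share was 39.7% and the window difference 0.98 and 0.91.

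A reciprocal overlap of 50% gave a gene share of 22%. A −log10 q of at least 3 gave a window difference of 1.05 and 1.02, and −log10 p in place of fold 1.37 and 1.44 and a rho of 0.981. Among members with the core the window difference was 0.81 and 0.68. An exact core was found in 13.8%. In windows of 100 bp to each side of the summit the core share was 46.4%, GC 60.7% and the GC box share 31.6%. Sp1 overlap was 20.9% with antibody 1 alone, 12.7% with antibody 2 alone and 2.72% with summits within 100 bp.

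Leaving out 1 replicate and taking all promoter peaks of the other gave 7367 to 9545 peaks, 24.9 to 32.5% of protein-coding genes, a core share of 37.8 to 43.6%, orientation of 52.5 to 53.1% overall and 64.9 to 67.1% in the upstream window, a downstream share of 41.8 to 43.5%, GC of 62.4 to 63.4%, Sp1 overlap of 11.0 to 12.1% and 347 to 441 list genes. The higher count of peaks came from replicate 1. Without replicate 2, the list of cell cycle control genes had 21 genes with a peak (42.9%, 30 to 56.7) and the HOX list 13 (33.3%, 20.6 to 49). Both intervals spanned the 32.5% of all protein-coding genes. The intervals of the proteasome, RNA polymerase II and Mediator and aminoacyl-tRNA synthetase lists then lay above that share. Without replicate 1 the synthetases lay above too. The histones lay below the background within 500 bp and with either replicate alone, and the HOX list within 250 bp (2.56%).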
